A study of Homo sapiens with 16 samples.

Results

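The solute carrier (SLC) genes encode membrane proteins that move amino acids, sugars, ions, metals, nucleotide sugars and other small molecules into and out of cells and organelles. They were taken from the deposited table of gene bodies as every row whose symbol is SLC, digits, a letter and digits, which gave 126 of 9944 rows in 37 families. Families SLC22 (organic ions) and SLC25 (mitochondrial carriers) were the largest, with 14 genes each. Transcripts were followed as they were made, by TT-chem-seq, in HAP1, a near-haploid human line derived from KBM-7 leukaemia cells and of wild-type genotype in every group. Cells were given the uridine analogue 4-thiouridine (4-SU) at 1 mM for the last 30 min, and RNA that had taken it up was biotinylated, pulled down and sequenced. The 8 groups, of 2 libraries each, were untreated cells with and without 4-SU, and 4-SU cells given BMH-21 (1 µM, an RNA polymerase I inhibitor), DRB (100 µM, an RNA polymerase II inhibitor) or ML-60218 (20 µM, an RNA polymerase III inhibitor) for 1 h or for 5 h. Titles number the libraries of a group as biological replicates, but separate cultures are not stated, so each p-value measures only the spread between these libraries. Every comparison is of 2 libraries against 2.

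Solute carriers are grouped in families by sequence, and a family often shares the kind of cargo it carries. Some are uniporters, while others couple the cargo to sodium, protons or a second cargo. They are transcribed by RNA polymerase II, the enzyme whose release into elongation needs the kinase that DRB inhibits, so a polymerase already within a gene at the time of treatment can run on while new ones are held near the start. Several carriers are known for transcription that follows the supply of their cargo, as with zinc exporters when zinc rises and cationic amino acid transporters when amino acids are short.

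Solute carrier genes took between 1.29% and 1.5% of the tags in the gene-body table in every library, with or without 4-SU and with or without an inhibitor. In number, that was between 809.5 tags (DRB, 5 h) and 83169.5 tags (BMH-21, 1 h), where each mate of a read pair counts 0.5. At least 50 tags over both untreated libraries were held by 70 of the 126 genes, under 10 tags by 39 and none by 1. The test kept 102 of the 126 genes, and 24 had too few tags, among them 8 of the SLC22 family and 3 of the SLC13 family. Of the 102, 20 passed the filter on low values only through the shallow DRB libraries, so those had to be high there, and the DRB comparisons are therefore described over the 70 genes that untreated cells express. Tags were assigned without a strand, per the file headers, and 40 of the 126 regions overlap another RefSeq gene, so tags of such neighbours cannot be told apart. Another gene covers most of the region for 4 genes: SLC25A51, SLC35D2, SLC39A4 and SLC15A5. Blood lineage markers of the parent line were in part present: RUNX1 had 497 and 766.5 tags in the untreated libraries, ITGA2B 67 and 157.5, and SPI1 2.5 and 4.5.

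In untreated cells SLC30A1, the zinc exporter of the plasma membrane, had the highest mean level per length of the 126 carriers in the table. It had 14.5 and 21.4 tags per kilobase in a library scaled to 10000000 tags. Other solute carrier genes have no row in that table and were not ranked. SLC6A8, the creatine transporter, followed with 11.7 and 14.6 per kilobase, and the libraries of these 2 genes overlap. SLC39A3, a zinc importer, had 7.63 and 9.03 per kilobase, SLC37A4, the glucose-6-phosphate carrier of the endoplasmic reticulum, 7.49 and 8.38, and SLC38A5, a glutamine transporter, 5.69 and 8.36. These 3 neighbours did not separate beyond the spread between the libraries. The next 5 genes in order were SLC35F6, SLC39A4, SLC25A38 (a mitochondrial glycine carrier), SLC25A4 (the ADP/ATP exchanger) and SLC35E2, with means from 5.51 down to 3.83 per kilobase. The median solute carrier gene stood at 0.258 tags per kilobase against 0.0554 for all 9944 rows. Cargo classes were assigned by family alone, so a member of other or unknown cargo counts with its family. SLC6A8, for example, stands among the amino acid carriers. All 10 metal carriers had at least 50 tags, as did 11 of 12 carriers of nucleotide sugars and acetyl-CoA in the endoplasmic reticulum and Golgi. Only 3 of 15 organic ion carriers and 3 of 10 sugar carriers did.

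Promoter sequence from RefSeq (GRCh38.p14) is shown for SLC30A1 and SLC30A10, the zinc and manganese exporters whose values with BMH-21 and DRB are given further on, because SLC30A1 is a known target of the metal-responsive factor MTF1. Each window holds the 250 bases before the RefSeq start, on the minus strand of chromosome 1, at chr1:211579162-211579411 for SLC30A1 and chr1:219928558-219928807 for SLC30A10. Capitals mark a match to the core of the metal response element, TGCACNC or TGCGCNC, on either strand.
SLC30A1: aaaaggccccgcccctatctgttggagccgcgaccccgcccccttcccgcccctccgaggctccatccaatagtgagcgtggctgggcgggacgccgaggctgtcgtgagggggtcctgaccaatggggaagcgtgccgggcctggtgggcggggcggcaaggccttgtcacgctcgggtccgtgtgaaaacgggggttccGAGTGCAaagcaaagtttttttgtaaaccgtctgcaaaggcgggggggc
SLC30A10: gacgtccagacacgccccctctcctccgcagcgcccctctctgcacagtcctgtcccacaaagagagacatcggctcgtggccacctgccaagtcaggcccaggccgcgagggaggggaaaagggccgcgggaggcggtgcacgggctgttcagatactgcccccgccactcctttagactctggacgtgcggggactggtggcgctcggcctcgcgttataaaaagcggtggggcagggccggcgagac
The RefSeq start of SLC30A1 lies upstream of its counted region, given further on, and the bases between them are not shown. The SLC30A1 window holds 1 match and the SLC30A10 window 0. Such letters occur in 24.8% of 35116 RefSeq windows and in 34.1% of the 126 windows of the 97 solute carrier genes that have one, so a match is a description of the sequence and not evidence of a site.

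Yeast RNA added as a spike-in gave each gene's level as a percentage of the same-numbered untreated library. Both untreated libraries thus have a factor of 1, while tests on this scale did not pair libraries by number. A spike-in difference between the numbers therefore stays in the spread of those tests. A change that did not pass on this scale may reflect that spread. In such bulk libraries, fewer cells and less RNA per cell cannot be told apart. Without 4-SU the 70 genes stood at a median of 1.38%, from 0.49% for SLC30A1 to 11.6% for SLC4A4, a sodium bicarbonate cotransporter. With BMH-21 the median was 83.9% after 1 h and 121.7% after 5 h, and with ML-60218 102.1% and 102.7%. With DRB it was 28.8% after 1 h and 12.2% after 5 h, where 4 genes without a tag count as 0. All 3932 genes with 50 untreated tags had like medians: 86.0%, 118.9%, 101.8%, 94.3%, 25% and 10.8% in the same order.

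**Figure D1:**
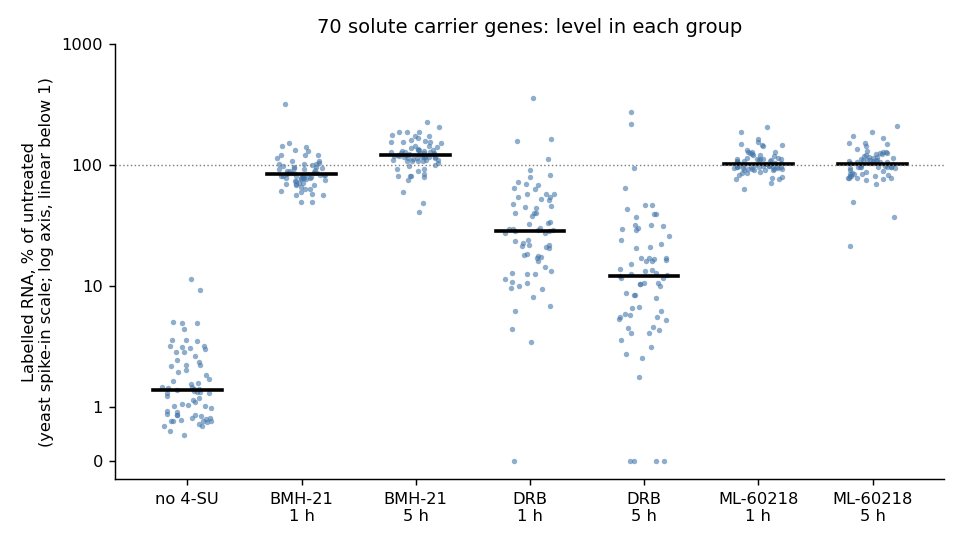
Each point is 1 of 70 solute carrier genes with at least 50 untreated tags, plotted as its level in percent of untreated cells on the yeast spike-in scale (vertical axis, logarithmic above 1 and linear below; mean of 2 libraries), and bars are group medians. The medians are 1.38% without 4-SU, 83.9% and 121.7% with BMH-21 for 1 h and 5 h, 102.1% and 102.7% with ML-60218, and 28.8% and 12.2% with DRB for 1 h and 5 h.

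Labelled untreated cells were set against cells without 4-SU to show which carriers the pulldown also holds as unlabelled RNA. For all other tests, each value was divided by the summed mRNA of its library and by a TMM factor, which makes a change one relative to typical mRNA. They are called mRNA-scaled tags here, on the scale of an untreated library. On that scale limma called 17 of 103 tested carriers higher with 4-SU, against 19% of all 5769 genes tested, and 28 lower, against 21.2%. Of the 28, 20 had under 50 untreated tags. Of the same 28, 13 passed the filter on low values of the labelled libraries only through DRB libraries. The wider count is therefore no support for an excess of lower carriers. Among the 70 expressed carriers 17 were higher and 8 lower, against 26.6% and 10.7% of the 3932 genes with 50 untreated tags. SLC30A1 had 109 and 146 mRNA-scaled tags with 4-SU and 67.5 and 21.1 without (log2 change 1.73, SE 0.49, limma's adjusted p = 0.0141). SLC25A33, a pyrimidine nucleotide carrier of mitochondria, had 141 and 138 against 52.3 and 48.1 (1.47, SE 0.21, limma's adjusted p = 0.000288). In both genes the 2 groups did not overlap, which the rule for naming called carriers required.

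SLC17A9 (vesicular ATP uptake), SLC38A7 (lysosomal glutamine export), SLC35E2, SLC8B1 (mitochondrial sodium-calcium exchange), SLC25A42 (mitochondrial coenzyme A) and SLC38A6 were 1.14 to 1.23 higher. Lower with 4-SU relative to typical mRNA were SLC38A5 with 70.3 and 93.1 against 254 and 186 mRNA-scaled tags, and SLC6A8 with 104.5 and 118 against 263 and 174. Their log2 changes were -1.42 (SE 0.27, limma's adjusted p = 0.00135) and -0.94 (SE 0.25, limma's adjusted p = 0.00913). SLC44A2 (a choline transporter-like protein, -1.40), SLC25A23 (a mitochondrial ATP-magnesium carrier, -1.05) and SLC35B4 (a Golgi nucleotide sugar carrier, -0.93) were also lower. On the spike-in scale each of these 5 turned to the other direction, with 3.68 to 4.81 in favour of labelled cells, as limma called 85 of the 103 carriers higher and none lower there, against 84.5% and 0% of all genes. Without the first untreated library the count of called carriers on the mRNA scale was 26 in place of 45.

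DRB was given to ask how far RNA polymerase II transcription falls when release into elongation is blocked. Measured against the spike-in, limma called 56 of the 70 expressed carriers lower after 1 h and 66 after 5 h, against 86% and 95.1% of the 3932 genes with 50 untreated tags. It called 1 higher at each time, against 0.432% and 0.865%. Summed over all 126 carriers, labelled RNA stood at 34.8% ± 1.82 of untreated after 1 h (SD, n = 2) and 17.7% ± 0.168 after 5 h (SD, n = 2). Relative to typical mRNA, 14 of the 70 were called higher after 1 h and 21 lower, against 14.2% and 37.5% of those 3932 genes. After 5 h 13 were higher and 35 lower, against 12.6% and 50.1%. Over all 102 tested carriers, which include the 20 that had to be high in a DRB library, the counts were 21 higher and 21 lower after 1 h (15.2% and 28.5% of 5532 genes tested) and 36 and 38 after 5 h (25.5% and 39.1%). Of the 36, 18 were such genes, so these wider counts are no support for a rise. edgeR called 25 higher and 24 lower after 1 h, where it called 53.2% of all genes in either direction, and 35 and 23 after 5 h (21.9% and 26.6%, 48.4% in either direction). By level, limma called 3 of the 102 higher and 61 lower after 1 h (1.32% and 67.7%, 69% in either direction) and 14 and 70 after 5 h (7.5% and 75.7%, 83.2% in either direction). Of the 14, 11 passed the filter only through DRB libraries. On the mRNA scale the median of all genes was -0.15 after 1 h and -0.44 after 5 h, and on the spike-in scale -1.49 and -2.53 (log2). All comparisons with untreated cells share the same 2 untreated libraries. Without the first of them, 23 in place of 42 carriers were called after 1 h.

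The level after 1 h of DRB followed the length of the region counted. The 10 expressed carriers under 10 kb had a median level of 13.8% of untreated, the 28 of 10 to 30 kb 21.5%, the 25 of 30 to 100 kb 40.2%, the 5 of 100 to 200 kb 54.1% and the 2 over 200 kb 81.5%. All genes of those lengths had medians of 10.0%, 16.1%, 32.8%, 51.6% and 59.3%. After 5 h the carriers' medians were 18.6%, 12.4%, 10.4%, 10.5% and 31.1%, and all genes' lay between 8.71% and 11.8%. Spearman's rho of level with length was 0.459 across the 70 carriers after 1 h and -0.129 after 5 h, and 0.571 and 0.109 across all 3932 genes. These are correlations across genes of the same libraries and carry no test. The 3 shortest carriers were SLC39A4 (4.5 kb), SLC7A3 (5.5 kb) and SLC37A4 (6.6 kb), and the 3 longest SLC35F1 (410.2 kb), SLC4A4 (382.4 kb) and SLC16A7 (184.1 kb).

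**Figure D2:**
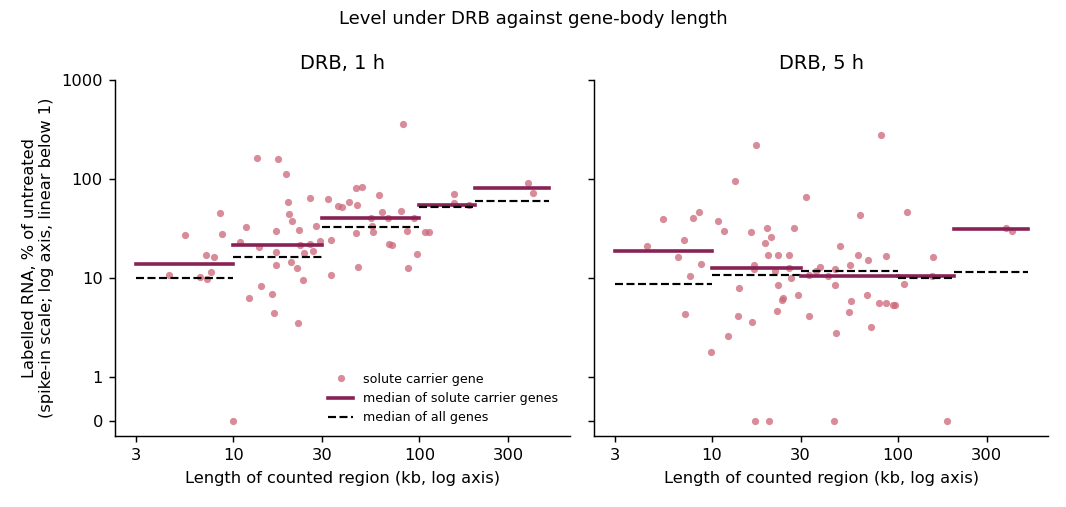
Level in percent of untreated cells on the spike-in scale (vertical axis, logarithmic above 1) against the length of the counted region in kilobases (horizontal axis, logarithmic) for the 70 expressed solute carrier genes with DRB for 1 h (left) and 5 h (right). Solid lines are medians of the carriers per length class and dashed lines those of all genes. After 1 h the solid lines rise from 13.8% under 10 kb to 81.5% over 200 kb, the class with the fewest carriers. The dashed lines rise as well after 1 h. After 5 h the solid lines do not rise steadily with length.

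SLC35F1 is the longest of the regions (chromosome 6, 117907525 to 118317676, hg38). Its level stood at 73.4% and 71.7% of untreated after 1 h and at 34% and 26% after 5 h. Against typical mRNA it rose by 1.13 on the log2 scale after 1 h (SE 0.14, limma's adjusted p = 9.78e-05) and by 0.73 after 5 h (SE 0.14, limma's adjusted p = 0.000853). SLC4A4, nearly as long, was at 70.6% and 110.2% and then at 42.5% and 21.9%, on few tags (10 and 31, then 4 and 2.5).

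Cargo classes follow the family alone. By class, the ion exchangers and cotransporters kept a median of 50.1% of untreated after 1 h and 10.9% after 5 h (8 expressed genes). Of these 8, 5 were called higher than typical mRNA after 1 h and 1 after 5 h, while 1 and then 5 were called lower. The shares of all 3932 genes to read such counts against are the 14.2% higher and 37.5% lower after 1 h and the 12.6% and 50.1% after 5 h given above. The 11 expressed mitochondrial carriers had medians of 24.3% and 7.98%, with 5 and then 8 of them lower than typical mRNA. Carriers of nucleotide sugars and acetyl-CoA had 20.7% and 6.79% (11 genes, 6 and then 7 lower), metal carriers 16.9% and 12% (10 genes, 5 and then 6 lower), and amino acid carriers 24.5% and 16.8% (10 genes, 2 and then 4 lower). For the amino acid carriers, 3 were also called higher than typical mRNA after 5 h. Neither counts nor medians of the groups were tested against each other, and the groups differ in gene length.

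**Figure D3:**
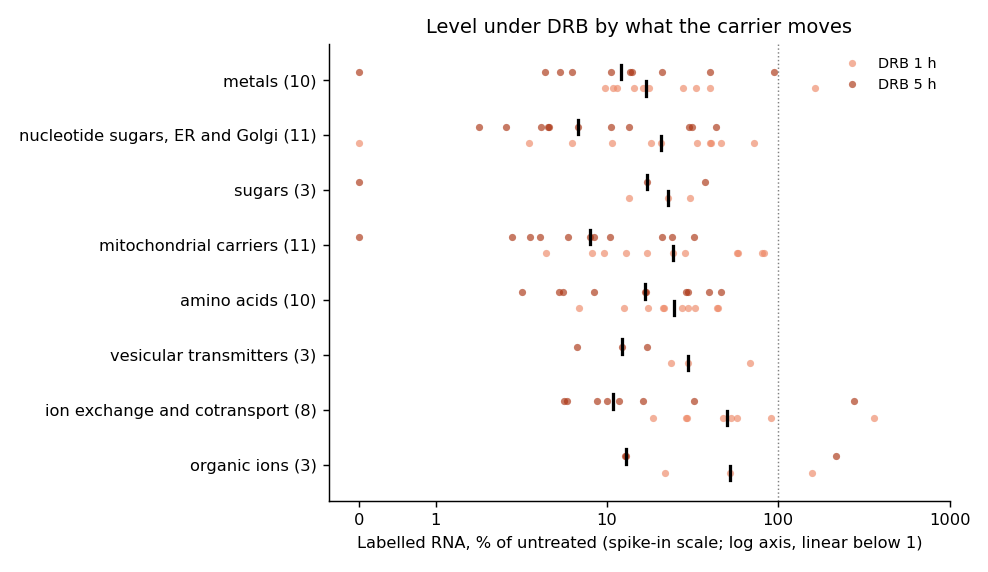
Level of each expressed solute carrier gene with DRB for 1 h (light) and 5 h (dark), in percent of untreated cells on the spike-in scale (horizontal axis, logarithmic above 1), by cargo class, with the number of genes in brackets and bars at the medians. Cargo classes were assigned by family alone. Metal carriers have medians of 16.9% and 12%, ion exchangers and cotransporters 50.1% and 10.9%.

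After 1 h the named falls were spread over several cargo classes. SLC25A51, the mitochondrial NAD carrier, went from 39.8 and 30.1 mRNA-scaled tags to 9.35 and 1.27 (log2 change -3.07, SE 0.65, limma's adjusted p = 0.00305), but RefSeq places a pseudogene over all of its region. SLC35B3, which brings the sulfate donor PAPS into the Golgi, went from 20.6 and 17.8 to 1.34 and 2.52 (-3.06, SE 1.02, limma's adjusted p = 0.0317). SLC35E4 went from 34.6 and 43.6 to 9.35 and 5.03 (-2.41, SE 0.37, limma's adjusted p = 0.00046). In all of these both DRB libraries lay below both untreated ones, which the rule for naming called carriers required.

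SLC25A46 (mitochondrial shape), SLC25A38 (mitochondrial glycine), SLC30A1 (zinc export), SLC37A4 (glucose 6-phosphate) and SLC33A1 (acetyl-CoA into the endoplasmic reticulum) fell by 1.70 to 2.04 relative to typical mRNA. Their mean levels were between 9.55% and 10.7% of untreated, except 8.18% for SLC25A38. SLC35G1 had 77.5 and 92 tags in untreated cells and none in either library after 1 h, so its level was at most 3.47% of untreated, at least 28.8-fold lower, taking a floor of 3 tags over the group.

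After 5 h the falls in SLC35B3, SLC35E4, SLC25A51 and SLC30A1 were -3.07, -2.74, -2.31 and -2.04 relative to typical mRNA. SLC25A37, the mitochondrial iron importer mitoferrin, went from 113 and 112 mRNA-scaled tags to 10.4 and 24.5 (-2.77, SE 0.34, limma's adjusted p = 5.75e-05). SLC35E2 went from 51.5 and 53.7 to 13.9 and 10.2 (-2.09, SE 0.19, limma's adjusted p = 9.19e-06). Current annotation splits this symbol into near-identical copies, so its tags are uncertain. SLC38A6, of the glutamine transporter family (-2.35), and SLC1A1, a glutamate and cysteine transporter (-2.06), also fell.

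No tag was left after 5 h for SLC16A7, a monocarboxylate transporter, SLC40A1, the iron exporter ferroportin, SLC2A3, a glucose transporter, and SLC25A48. With the same floor they were at least 10.8-fold, 7.47-fold, 8.92-fold and 5.40-fold lower than untreated on the spike-in scale. With those 4 at their bounds, the median over the 70 carriers after 5 h was 12.8%.

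The mean level under DRB was above untreated for 4 of the 70 expressed carriers after 1 h and for 2 after 5 h. Of all 3932 genes with 50 untreated tags, 111 and 76 were above untreated. SLC22A11, an organic anion transporter (chromosome 11, 64555625 to 64572875, hg38), had 52.5 and 77.5 tags in untreated cells, 40.5 and 65 after 1 h and 24 and 47 after 5 h, in libraries with far fewer mRNA tags. Its level was 141.5% and 174.5% of untreated after 1 h (spike-in log2 change 0.63, SE 0.37, limma's adjusted p = 0.147) and 126.1% and 310.1% after 5 h (0.96, SE 0.37, limma's adjusted p = 0.0264). Relative to typical mRNA it rose by 2.20 and by 3.41 (limma's adjusted p = 0.00097 and 3.38e-05).

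SLC26A8, an anion exchanger known from testis (chromosome 6, 35943513 to 36024855, hg38), had 24 and 33.5 untreated tags, 30.5 and 78.5 after 1 h, and 7 and 31 after 5 h. After 1 h its level was 233.1% and 487.3% of untreated (spike-in log2 change 1.66, SE 0.58, limma's adjusted p = 0.0181), and after 5 h 80.5% and 472.7% (0.92, limma's adjusted p = 0.148), so that the libraries at 5 h lay on both sides of untreated. Other RefSeq entries cover 46.9% of the SLC26A8 region, and their tags cannot be told apart from those of SLC26A8. SLC44A2 had 97.0% and 126.7% after 1 h, then 31.4% and 13.6%. SLC30A10, a manganese exporter, had 222.1% and 104.1% after 1 h (spike-in log2 change 0.56, SE 0.45, limma's adjusted p = 0.277). These genes were taken after their values were seen, as all 4 expressed carriers whose mean level was above 100% after DRB.

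Relative to typical mRNA, SLC44A2 rose by 1.71 after 1 h, SLC25A42 by 1.30, SLC44A1 (a choline transporter-like protein) by 1.06, SLC17A5 (the lysosomal sialic acid exporter) by 1.03, SLC9A7 (a sodium-proton exchanger of the trans-Golgi) by 0.79 and SLC25A20 (the carnitine-acylcarnitine carrier) by 0.77. On the spike-in scale SLC25A42, SLC35F1, SLC44A1, SLC17A5, SLC9A7 and SLC25A20 had log2 changes of -0.28 to -0.79, of which those of SLC9A7 and SLC25A20 passed (limma's adjusted p = 0.0213 and 0.0484). After 5 h SLC6A8 rose by 1.37 against typical mRNA (SE 0.22, limma's adjusted p = 0.000328), from 104.5 and 118 to 261 and 319 mRNA-scaled tags, while its level was 45.2% and 47.7% of untreated.

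SLC35D2, SLC39A13 (a zinc carrier of the secretory pathway), SLC2A8 (an intracellular glucose transporter), SLC25A23 and SLC35B4 were 0.77 to 1.20 higher than typical mRNA after 5 h, and -1.20 to -1.66 on the spike-in scale. SLC6A8, SLC25A23 and SLC35B4 were also called lower with 4-SU relative to typical mRNA. Their level without 4-SU equalled 6.88%, 11.1% and 11.5% of that after 5 h of DRB, against 1.88% for SLC39A13 and 0.26% for SLC22A11. The part of unlabelled RNA in these rises was not tested. For the 35 carriers called lower after 5 h, the median of that value was 23.6%.

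**Figure D4:**
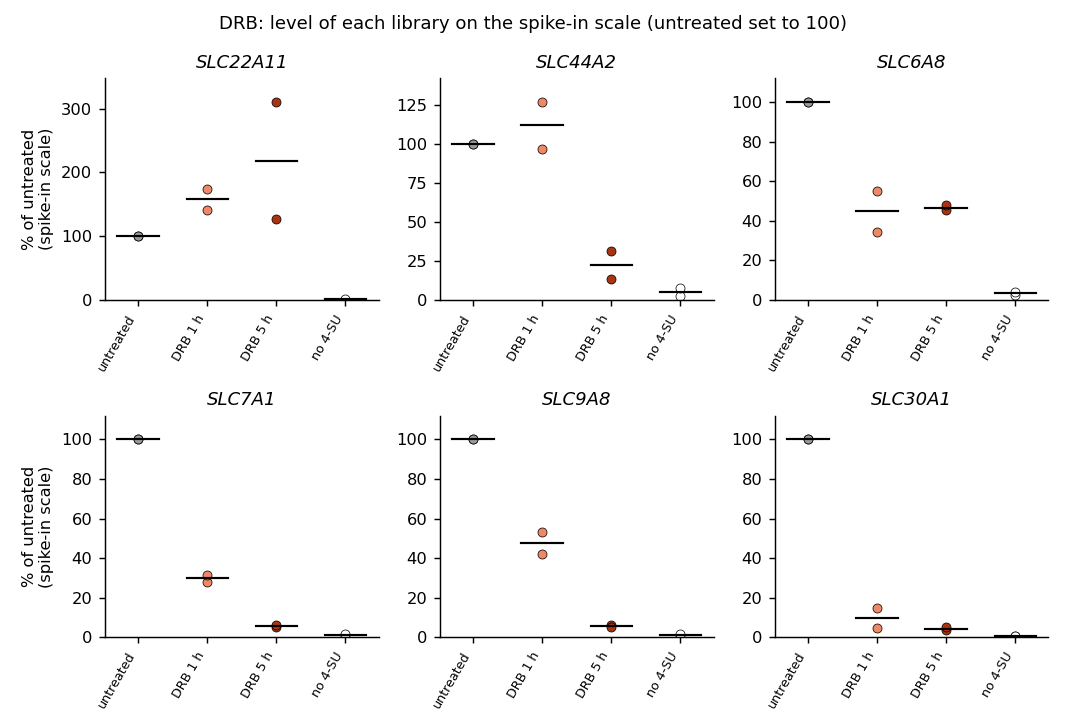
Level of 6 solute carrier genes in each library (points) and group mean (bars) in percent of the same-numbered untreated library on the spike-in scale, for untreated cells (100 by definition), DRB for 1 h and 5 h, and cells without 4-SU. SLC22A11 stays above 100% in all 4 DRB libraries, SLC6A8 has means of 44.7% and 46.5%, and SLC7A1, SLC9A8 and SLC30A1 end between 4.35% and 5.59% in the mean.

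SLC6A15, a neutral amino acid transporter below 50 untreated tags, had 15 and 32 untreated tags, 44 and 58 after 1 h of DRB and 10 and 12 after 5 h. SLC5A11, SLC2A7 and SLC17A8 passed the filter only through the DRB libraries, so they had to be high in some of them. SLC5A11, a myo-inositol transporter, had 6.5 and 9.5 untreated tags, 2 and 1.5 after 1 h and 32.5 and 25.5 after 5 h. SLC2A7 had 5 and 4 untreated tags and 7 and 24 after 1 h, and SLC17A8 1 and 6.5 and then 7 and 5 after 5 h.

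Between 1 h and 5 h of DRB, 16 of the 70 expressed carriers rose relative to typical mRNA and 28 fell, against 26.9% and 32.4% of the 3932 genes. By level 1 was called higher and 37 lower, against 7.55% and 49.2%. SLC9A8, a sodium-proton exchanger of endosomes and the Golgi, went from 122 and 94.2 mRNA-scaled tags to 24.4 and 22.5 (log2 change -2.17, SE 0.16, limma's adjusted p = 1.85e-06). SLC7A1, the cationic amino acid transporter, went from 254 and 261 to 79.9 and 98.2 (-1.53, SE 0.14, limma's adjusted p = 6.43e-06). In the same interval their levels went from 47.5% to 5.59% and from 29.8% to 5.55% of untreated, in the mean of 2 libraries. SLC8B1, SLC19A1 (the reduced folate carrier), SLC25A42, SLC9A7, SLC4A7 (a sodium bicarbonate cotransporter) and SLC25A33 fell by 0.83 to 1.29. All of these 8 regions are between 36.4 and 153.7 kb long. SLC6A8 (0.98) and SLC38A5 (0.67) rose relative to typical mRNA, and on the spike-in scale SLC6A8 changed by 0.09 and SLC38A5 by -0.21, neither of which passed.

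BMH-21 and ML-60218 were given to ask what RNA polymerase II genes do when another polymerase is inhibited. Most solute carrier genes did not pass a test in these comparisons. limma on all 14 labelled libraries called none of the 102 carriers in any of them, as it called 0% of all genes against untreated cells, with 3, 7, 0 and 12 carriers at an unadjusted p under 0.05 (BMH-21 1 h and 5 h, ML-60218 1 h and 5 h). limma without the 4 DRB libraries called 4, 3, 0 and 12 carriers. The share of all genes called in that fit was not counted, so these counts are no result about carriers. edgeR's quasi-likelihood test on the recovered tags called 3 higher and 4 lower after 1 h of BMH-21 (2.58% and 5.37% of all genes, 7.95% in either direction), 2 and 5 after 5 h (1.59% and 1.75%, 3.34% in either direction), none after 1 h of ML-60218 (0.0181% and 0.0362%, 0.0542% in either direction; 6 at an unadjusted p under 0.05; DESeq2 also called none), and 7 and 4 after 5 h (4.18% and 2.3%). Each count rests on single libraries: with 1 library left out, edgeR called between 1 and 12 carriers after 1 h of BMH-21 (1 without its first library), between 0 and 5 after 5 h (0 without the second untreated library), and between 0 and 3 after 5 h of ML-60218 (0 without its first library).

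SLC30A1 moved most often. Its region spans 211571567 to 211578742 of chromosome 1 on the minus strand (hg38). Untreated libraries held 109 and 146 mRNA-scaled tags of it, against 208 and 176 after 1 h of BMH-21 and 61.6 and 65.8 after 5 h. With ML-60218 it had 186 and 194 after 1 h and 61.9 and 73.4 after 5 h. With both inhibitors the 1 h libraries thus lay above both untreated libraries and the 5 h libraries below both. Groups that did not overlap were a condition for naming a called carrier, here and below. For such carriers the lack of overlap is no further support.

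SLC30A1 rose by 0.59 on the log2 scale after 1 h of BMH-21 in edgeR's fit (edgeR adjusted p = 0.0358) and fell by 1.01 after 5 h (edgeR adjusted p = 0.00122). With ML-60218 the value after 1 h was 0.57 and did not pass (edgeR adjusted p = 0.333), and after 5 h it fell by 0.93 (edgeR adjusted p = 0.00453). The difference between 5 h and 1 h, which uses no untreated library, was -1.59 with BMH-21 (edgeR adjusted p = 5.86e-07) and -1.50 with ML-60218 (edgeR adjusted p = 1.76e-05). limma on the 14 libraries gave -1.58 (SE 0.39, adjusted p = 0.157) and -1.49 (SE 0.39, adjusted p = 0.137), and limma on the spike-in scale -1.14 (adjusted p = 0.0948) and -1.63 (adjusted p = 0.047). With any 1 of the 4 libraries left out, edgeR still called the difference, at -1.46 to -1.71 with BMH-21 and -1.36 to -1.60 with ML-60218. Of the values against untreated cells, the rise after 1 h of BMH-21 was not called without the first BMH-21 library (edgeR adjusted p = 0.419) or the first untreated library (edgeR adjusted p = 0.319), nor on the spike-in scale (edgeR adjusted p = 0.448). The falls after 5 h were not called without the second untreated library (edgeR adjusted p = 0.076 with BMH-21 and 0.0769 with ML-60218), and the fall with ML-60218 also not without its first library (edgeR adjusted p = 0.0978).

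SLC30A10 had 4.91 and 12.6 mRNA-scaled tags in untreated cells and 27.2 and 24.1 after 1 h of BMH-21, above both (edgeR log2 change 1.48, edgeR adjusted p = 0.000995). After 5 h of BMH-21 it had 6.05 and 5.30, which is -2.18 against 1 h (edgeR adjusted p = 6.73e-07). With ML-60218 it had 12.9 and 17.2 and then 7.83 and 9.29. The rise after 1 h of BMH-21 was called with each 1 of the 4 libraries left out and on the spike-in scale (edgeR adjusted p between 4.51e-05 and 0.0355).

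SLC15A1, the proton-coupled peptide transporter of the gut, had 9.14 and 11.2 mRNA-scaled tags in untreated cells, 22.5 and 12.1 after 1 h of BMH-21 and 3.31 and 3.70 after 5 h. With ML-60218 it had 25.5 and 9.95 and then 1.47 and 3.25. The first library at 1 h was the higher with each inhibitor, while those at 5 h lay below both untreated libraries. SLC15A1 fell after 5 h of BMH-21 (edgeR log2 change -1.56, edgeR adjusted p = 0.0104), and the difference from 1 h was -2.38 (edgeR adjusted p = 4.96e-06).

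Also lower with BMH-21 were the zinc importers SLC39A4 (-0.75 after 1 h and -0.76 after 5 h) and SLC39A3 (-0.60 after 1 h), the folate carrier SLC19A1 (-0.51 and -0.54) and SLC25A23 (-0.86 after 1 h), all by edgeR with adjusted p between 0.0106 and 0.0448. SLC35D1, which brings UDP-sugars into the endoplasmic reticulum, was 0.72 higher after 1 h (edgeR adjusted p = 0.0302). Its libraries had 94.9 and 67.8 mRNA-scaled tags against 51.4 and 48.6 in untreated cells. Without the first BMH-21 library, none of SLC30A1, SLC35D1, SLC25A23, SLC39A4, SLC39A3 and SLC19A1 was called after 1 h. After 5 h SLC19A1 was not called with any 1 of the 4 libraries left out, and SLC39A4 was called only without the first untreated library.

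SLC35D2 and SLC45A3 were higher after 5 h of either inhibitor. SLC35D2, a nucleotide sugar carrier of the Golgi, had 17.9 and 16.8 mRNA-scaled tags in untreated cells, 29 and 32.5 after 5 h of BMH-21 and 30.2 and 31.3 after 5 h of ML-60218, all 4 above untreated. A read-through transcript annotated by RefSeq covers its whole region. The edgeR log2 changes were 0.82 with each inhibitor (edgeR adjusted p = 0.00679 and 0.0112). SLC45A3, also called prostein, had 24.9 and 22.8 without an inhibitor, 33.6 and 42.2 after 5 h of BMH-21 and 32.3 and 42.1 after 5 h of ML-60218 (0.67 and 0.64, edgeR adjusted p = 0.0227 and 0.0321). With ML-60218 neither was called with any 1 of the 4 libraries left out, nor on the spike-in scale (edgeR adjusted p = 0.164 and 0.284), where both were called with BMH-21. With BMH-21 neither was called without the second treated library or the second untreated library, nor SLC45A3 without the first untreated library.

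**Figure D5:**
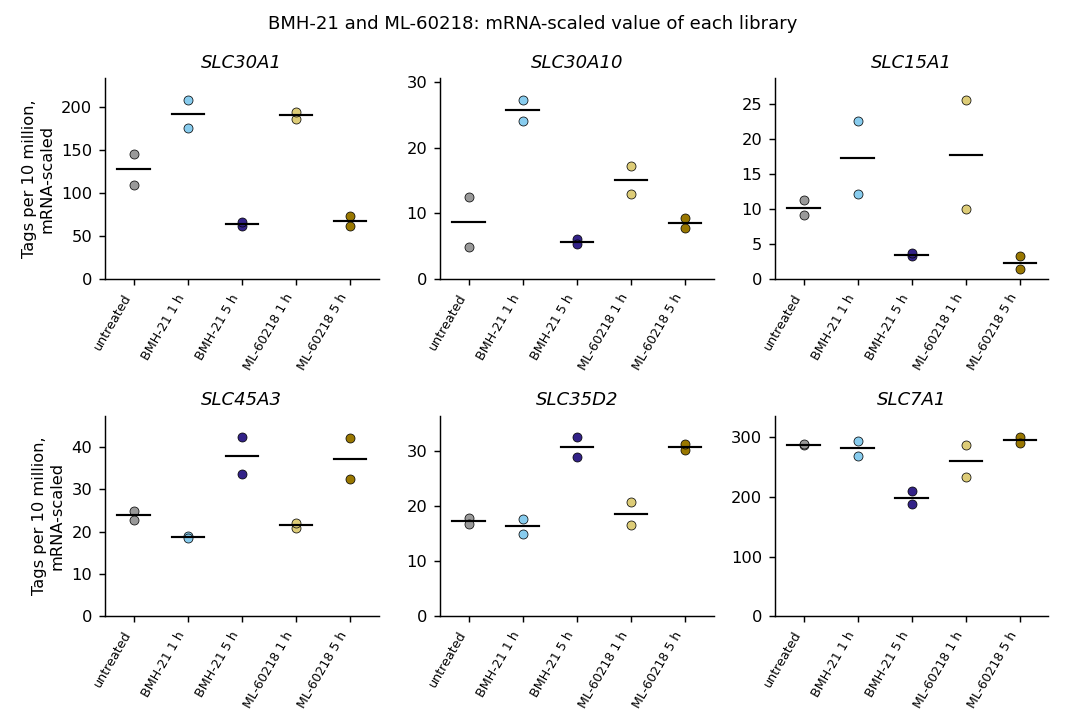
mRNA-scaled tags (vertical axes from 0) of 6 solute carrier genes in each untreated, BMH-21 and ML-60218 library (points) with group means (bars). SLC30A1 is above both untreated libraries after 1 h and below both after 5 h with either inhibitor, and SLC35D2 and SLC45A3 are above both after 5 h.

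With ML-60218 for 5 h, SLC2A3 (a glucose transporter, 0.98), SLC7A3 (0.84) and SLC39A13 (0.69) were also higher by edgeR (adjusted p = 0.0271, 0.045 and 0.015). SLC38A3 and SLC22A17 were called higher and SLC15A1, SLC10A1 and SLC9A2 lower as well, each with under 50 tags in the mean of the libraries compared. With spike-in factors edgeR called 2 carriers in place of 11, of which SLC30A1 was 1. The share of all genes called with those factors was not counted.

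Between 1 h and 5 h of BMH-21, edgeR called 13 carriers higher and 9 lower (10.5% and 7.86% of all genes), and with ML-60218 10 higher and 3 lower (8.03% and 3.98%). SLC45A3 (1.01 and 0.78), SLC35D2 (0.88 and 0.72) and SLC25A42 (0.99 and 0.76) rose in both. SLC25A42, which carries coenzyme A into mitochondria, had 31.1 and 30.7 mRNA-scaled tags after 1 h of BMH-21 and 48.1 and 75 after 5 h, and with ML-60218 38.4 and 44.9 and then 61.0 and 80.2. With BMH-21 SLC38A3 (a glutamine transporter), SLC2A3, SLC27A4 (fatty acid uptake), SLC25A20 and SLC44A2 were 0.74 to 1.08 higher, and SLC25A48, SLC10A1 (the bile acid uptake carrier), SLC35D1, SLC7A1 and SLC25A46 lower, by -0.49 to -1.03. With ML-60218 SLC30A3 (vesicular zinc), SLC35E2, SLC8B1 and SLC6A8 were 0.56 to 0.81 higher. The count with BMH-21 was 6 without its first 1 h library and 12 without its second 5 h library, and with ML-60218 it was 3 without its first 1 h or second 5 h library. On the spike-in scale the counts were 34 higher and 3 lower with BMH-21, and 1 and 3 with ML-60218, where the median of all genes was 0.45 and -0.16 in place of near 0. How many of all genes edgeR called on that scale was not counted, so these counts are no result about carriers.

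Of 11 listed amino acid transport genes of the integrated stress response, SLC7A1 and SLC7A3 are in the table, both carriers of cationic amino acids. SLC7A1 had 286 and 287 mRNA-scaled tags in untreated cells, 269 and 292 after 1 h of BMH-21 and 188 and 209 after 5 h, which lay below untreated (edgeR log2 change -0.53, edgeR adjusted p = 0.0311). That fall was not called with any 1 of the 4 libraries left out. With ML-60218 SLC7A1 had 233 and 286 and then 299 and 290, and did not pass. SLC7A3 had 8.11 and 11.2 in untreated cells and 15.5 and 20.1 after 5 h of ML-60218, above both, and 15.6 and 11.5 after 5 h of BMH-21 (not called). With DRB for 5 h SLC7A1 fell by 1.69 against typical mRNA (SE 0.14, limma's adjusted p = 4.48e-06) and SLC7A3 had 20.9 and 20.5 mRNA-scaled tags on 6 and 5 tags.

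Other transport genes were few in the table. Of the listed ABC transporters 7 of 23 were present, and 6 were tested. limma called 2 of these higher and none lower than typical mRNA after 1 h of DRB, and 3 higher and 2 lower after 5 h, where it called 15.2% and 28.5% of all genes tested after 1 h and 25.5% and 39.1% after 5 h. Of the sodium pump subunits 4 of 7 were present and 3 tested, with 2 higher after 5 h of DRB. Of the SLCO organic anion carriers 3 of 11 were present and 2 tested, with 1 higher after 5 h of DRB, and of the listed partner subunits of carriers EMB and TMEM27 were present, 1 of them lower at both times. The counts with DRB take in any listed gene that passed the filter on low values only through DRB libraries. Their higher calls are therefore no support for a rise. limma called none of these lists' genes with BMH-21 or ML-60218 against untreated cells.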

How the data were processed

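Newly made RNA was measured in 16 libraries. The signal values of gene bodies, under a heading of raw count, are HOMER tags scaled to 10000000 per library in the deposited table (hg38, no strand option, per the file headers). A deposited ratio of each library to its same-numbered untreated library gave the yeast spike-in factors used here. The tests on the spike-in scale did not use that pairing. STAR 2.7.7a, HOMER, Trim Galore 0.6.5 and FastQC 0.11.9 are named in the submitters' processing notes, with no further settings given in the sources used here. Library totals in the headers (14083584 to 93919776.5 tags) turned the values back into tags: 138470 of 138470 values under 200 tags were multiples of 0.5 tag, within the rounding of the file. The gene-body table held 55845.5 to 6059928.5 tags per library, fewest with DRB, which limits precision there. The authors' group means and the rRNA and tRNA tables were not used.

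The main test was limma's trend method on log2(value + 0.5) over 14 labelled libraries (all 16 for the comparison without 4-SU), which understates changes of low genes. Low genes were removed by filterByExpr at a minimum of 10 tags, and p-values were adjusted by Benjamini-Hochberg over all genes tested, with a threshold of 0.05. edgeR's quasi-likelihood test on the tags was an alternative. Solute carriers, cargo classes and gene lists were chosen with earlier results of these data known. Carriers are named, per comparison, when they passed limma with a mean of at least 50 tags and groups that did not overlap, up to the 8 largest changes each way, or edgeR in the same way where limma called fewer than 3. Also named are the amino acid transport list, the 10 with the most tags per kilobase, the smallest p per cargo class with DRB, and the 3 longest and 3 shortest. Other names are said to be chosen after their values were seen, or stand in counts of lost tags. The code was tested on simulated data. Versions were R 4.3.3 with limma 3.58.1, with edgeR 4.0.16, and with DESeq2 1.42.0. Some items are not reported here.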

Additional observations from a re-analysis of the deposited data

Results flagged for a closer look

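Carriers whose values differed between 1 h and 5 h of the same inhibitor, by a test of that difference, are given here with limma's log2 change relative to typical mRNA (5 h less 1 h). With DRB limma called 63 carriers, against 58.2% of all genes tested, of which 16 passed the filter on low values only through DRB libraries. Among the 70 expressed carriers 16 were higher and 28 lower. SLC6A8 (0.98) and SLC38A5 (0.67) were higher at 5 h, and SLC9A8 (-2.17), SLC7A1 (-1.53), SLC8B1 (-1.29), SLC19A1 (-1.26), SLC25A42 (-1.08), SLC9A7 (-0.98), SLC4A7 (-0.94) and SLC25A33 (-0.83) lower.

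With BMH-21 edgeR called 22 carriers, against 18.3% of all genes tested, and limma none. SLC45A3 (0.99), SLC25A42 (0.95), SLC38A3 (0.95), SLC35D2 (0.89), SLC2A3 (0.75), SLC27A4 (0.73), SLC25A20 (0.73) and SLC44A2 (0.73) were higher at 5 h by edgeR. SLC15A1 (-2.09), SLC30A10 (-2.08), SLC30A1 (-1.58), SLC25A48 (-0.92), SLC10A1 (-0.80), SLC35D1 (-0.67), SLC7A1 (-0.50) and SLC25A46 (-0.48) were lower.

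With ML-60218 edgeR called 13 carriers, against 12% of all genes tested, and limma none. SLC30A3 (0.81), SLC45A3 (0.76), SLC25A42 (0.75), SLC35E2 (0.71), SLC35D2 (0.71), SLC8B1 (0.60) and SLC6A8 (0.57) were higher at 5 h by edgeR, and SLC30A1 (-1.49) lower.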

How the results depend on the processing

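Counts of called carriers moved most with the scale, the tool and the libraries that share the spread. Apart from limma on the spike-in scale and edgeR's main fit, only carriers were counted in these settings. Those counts therefore show how the calls depend on processing and cannot be set against all genes. On the spike-in scale limma called 64 (DRB 1 h), 85 (without 4-SU), 2 (BMH-21, 5 h less 1 h) and 2 (ML-60218, 5 h less 1 h), and edgeR 3 (BMH-21 5 h), 2 (ML-60218 5 h), and 37 and 4 for the differences between times. For BMH-21 1 h, BMH-21 5 h, ML-60218 5 h and the differences between times of BMH-21, DRB and ML-60218, edgeR called 7, 7, 11, 22, 40 and 13, DESeq2 4, 6, 11, 18, 41 and 12, limma with array weights 6, 9, 14, 23, 25 and 11, and limma on only the 4 libraries compared 6, 9, 16, 21, 26 and 12. For DRB 5 h the last pair called 44 and 35. Without the DRB libraries limma called 4, 3, 12, 15 and 19 for the same comparisons other than DRB. Among genes with 50 untreated tags, an alternative chosen after seeing the data like all those with edgeR's other settings, limma called 41 (DRB 5 h) and 39 (DRB, 5 h less 1 h). With DESeq2 size factors the split of higher against lower calls was 25 and 17 (DRB 1 h) and 40 and 28 (DRB 5 h), and by DESeq2 33 and 17, and 42 and 14. The difference in level between carriers of 30 to 100 kb and under 10 kb after 5 h of DRB was -8.17 percentage points, -3.3 with a minimum of 20 untreated tags and -14.24 with 200.

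With 1 library left out, limma called 23 to 34 (DRB 1 h), 53 to 78 (DRB 5 h), 49 to 71 (DRB, 5 h less 1 h) and 26 to 58 (without 4-SU), and 0 to 0 in the other comparisons. edgeR called 1 to 12 and 0 to 5 (BMH-21 1 h and 5 h), 0 to 0 and 0 to 3 (ML-60218 1 h and 5 h), and 6 to 23 and 3 to 13 between times. The labels do not say that a number marks a shared day or batch. Deviations of same-numbered libraries correlated at -0.03 to 0.392 over the labelled groups, above 0.1 in 12 of 21 pairs of groups, among them all 10 pairs of the untreated, BMH-21 and ML-60218 groups, and with 2 libraries a group this is a hint from the data and not a design. With the replicate block limma called 42 (DRB 1 h) and 77 (DRB 5 h), and edgeR 14 (BMH-21 1 h), 12 (BMH-21 5 h) and 21 (ML-60218, 5 h less 1 h).

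Changes of direction came mostly with the spike-in scale. They were SLC25A42 -0.28, SLC35F1 -0.46, SLC44A1 -0.51, SLC17A5 -0.54, SLC9A7 -0.79 and SLC25A20 -0.77 (DRB 1 h); SLC6A8 -1.10, SLC35D2 -1.20, SLC39A13 -1.31, SLC2A8 -1.39, SLC25A23 -1.62, SLC35B4 -1.66, SLC35F1 -1.73 and SLC7A3 -1.26 (DRB 5 h); SLC7A1 -0.058 (ML-60218 5 h); SLC38A5 4.33, SLC44A2 3.68, SLC25A23 4.58, SLC6A8 4.81, SLC35B4 4.48 and SLC7A3 2.85 (without 4-SU); SLC7A3 0.35 and SLC38A5 -0.21 (5 h less 1 h of BMH-21 and of DRB). SLC7A1 after 1 h of DRB turned to 0.043 with DESeq2 size factors, 0.044 with DESeq2, 0.025 on the 4 libraries alone and 0.16 among genes with 50 untreated tags, and SLC7A3 to 0.006 with DESeq2. With 1 library left out SLC7A1 ranged from -0.084 to 0.022 (BMH-21 1 h) and SLC7A3 from -0.854 to 0.124 (DRB 1 h), -0.39 to 0.064 (ML-60218 1 h) and -0.274 to 0.139 (BMH-21, 5 h less 1 h). The spike-in scale turns relative changes into changes of level by construction; for the others the cause was not tested. Over the named carriers, 1367 results kept their direction and side of the threshold, 208 passed it newly, 103 no longer passed and 32 changed direction.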
